A study of Mus musculus with 19 samples.

Results

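The genes described here are 10 markers of cells other than neutrophils: the keratins Krt8, Krt18 and Krt19, mesothelin (Msln), decorin (Dcn), the collagen chains Col1a1, Col1a2 and Col3a1, Sparc and Pdgfrb. They were taken as a list of fibroblast, epithelial and mesothelial genes and not by any measured value. The deposited probe annotation gave 8 of the 10 at least 1 probe, 11 probes in all, out of 11504 genes with 15959 annotated probes on the array. Of those 11 probes, 10 probes of 8 genes passed the filter on dim probes, against 13088 annotated probes of 9523 genes on the whole array. The filter kept a probe whose deposited detection p-value was under 0.01 on at least 3 of 19 arrays. Col1a2 and Pdgfrb were not analysed here.

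The series holds 19 Illumina BeadChip arrays of mouse neutrophil RNA in 4 groups. The SM16 group (5 arrays) is tumor-associated neutrophils after treatment with SM16, which the study's design text describes as an inhibitor of the Alk5 kinase, the type I receptor of TGF-beta. The TAN group (3 arrays, numbered 1, 2 and 4) is neutrophils from tumors with no treatment named, the G-MDSC group (4 arrays) is splenic neutrophils of tumor-bearing mice, and the NN group (7 arrays) is naïve bone marrow neutrophils. Strain, genotype, age, tumor type, dose and duration of SM16, and the way the cells were isolated are not given in the sources used here, and nothing in the labels says whether arrays of a group come from separate animals. The p-values therefore measure the spread between arrays, which may be technical.

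Keratins 8 and 18 pair into the intermediate filaments of simple, single-layered epithelia, and keratin 19 is found in many ductal and simple epithelia. Mesothelin is a surface protein of mesothelial cells that many mesotheliomas and carcinomas carry. Decorin is a small proteoglycan that binds collagen fibrils, Col1a1 and Col3a1 encode chains of the fibrillar collagens type I and type III, and Sparc encodes a secreted collagen-binding protein made by fibroblasts, endothelial cells and other cells. Resting neutrophils are not known as a source of any of these. In RNA from a bulk sample, fewer cells of a type and less RNA per cell cannot be told apart.

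Krt8 and Krt18 lie next to each other on mouse chromosome 15 and had array profiles close to each other, so their promoters are shown, from 250 bases before to 50 bases after the annotated start (RefSeq, GRCm38.p6). Their start sites are 23874 bases apart, Krt8 on the minus strand (chr15:102004293-102004592) and Krt18 on the plus strand (chr15:102027966-102028265). Capitals mark matches to the letters TATAAA on either strand:
Krt8: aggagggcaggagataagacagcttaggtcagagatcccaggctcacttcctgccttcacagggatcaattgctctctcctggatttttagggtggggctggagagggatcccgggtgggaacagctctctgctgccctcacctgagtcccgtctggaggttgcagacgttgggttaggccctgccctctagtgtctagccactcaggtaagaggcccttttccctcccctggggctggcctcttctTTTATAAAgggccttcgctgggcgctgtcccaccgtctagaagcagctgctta
Krt18: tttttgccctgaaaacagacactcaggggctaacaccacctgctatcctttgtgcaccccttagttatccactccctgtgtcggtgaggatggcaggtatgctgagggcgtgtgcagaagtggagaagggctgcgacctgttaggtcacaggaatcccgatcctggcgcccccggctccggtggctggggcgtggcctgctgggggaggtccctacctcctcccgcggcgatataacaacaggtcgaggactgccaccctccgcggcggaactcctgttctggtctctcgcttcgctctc
The capitals in Krt8 hold TATAAA once on each strand, overlapping, at positions -3 and -1 from the annotated start, and Krt18 has no match in this window. TATAAA was found in 13.6% of 32851 promoter windows of this length, both strands searched. Neither promoter held a GC box (GGGCGG, in 35.7% of windows), a CCAAT box (CCAAT, 37.4%) or an AP-1 site (TGANTCA, 7.81%). Of the 10 genes, 5 had a promoter in the table used.

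The neutrophil label and the arrays themselves were looked at first. S100a8 averaged 15.77 in SM16, 15.74 in TAN, 15.57 in G-MDSC and 15.81 in NN on the log2 intensity scale used throughout, and was detected on every array. S100a9 averaged 15.47 in SM16, 15.56 in TAN, 15.22 in G-MDSC and 15.65 in NN. These values of both genes lie near the top of the scale, so they show that the transcripts are present and do not compare their levels. Csf3r, the G-CSF receptor, averaged 14.32 ± 0.19 in SM16, 13.06 ± 1.10 in TAN, 15.34 ± 0.24 in G-MDSC and 14.50 ± 0.15 in NN (SD). TAN 4 stood apart within its group: it correlated at r = 0.863 with TAN 1 and 0.873 with TAN 2 over all tested probes, while TAN 1 and TAN 2 correlated at 0.991. The lowest raw signal of an array lay between 10.3 and 17.7 on 6 arrays (NN 6, NN 7 and all of G-MDSC) and between 47.5 and 65.5 on the other 13, so no SM16 or TAN array shares a background level with G-MDSC. The numbers of probes detected were 10880 to 12492 in SM16, 9599 to 10773 in TAN, 11283 to 11435 in G-MDSC and 10660 to 11807 in NN.

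Both tumor groups carried far more keratin 8, keratin 18 and mesothelin signal than bone marrow or spleen. Of the 10 probes tested, 7 were higher and 2 lower in TAN than in NN, while 34.9% of all tested probes were higher and 33.1% lower. In SM16 against NN, 9 were higher and none lower, with 29.9% of all probes higher and 32.5% lower. The median log2 change of the 10 was 1.33 in TAN minus NN, where the median of all probes was 0.05, and 2.06 in SM16 minus NN, where it was -0.04. Of the 10, 6 (Krt18, Krt19, Msln, Col1a1, Col3a1 and Dcn ILMN_2596346) were detected on tumor arrays alone and so passed the filter only through the groups where they are high. The counts and medians are therefore tilted upward beforehand, and nothing is read from them against all probes. These comparisons share the NN arrays, and the 9 called probes of TAN minus NN and of SM16 minus NN are not independent of each other. A change was called at a limma adjusted p under 0.05 (Benjamini-Hochberg over all 13945 probes tested).

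Krt8 measured 10.78, 10.14, 10.59, 10.36 and 10.54 on the SM16 arrays and 11.49, 11.31 and 10.73 on TAN 1, 2 and 4. It measured 4.56, 4.90, 5.02 and 4.99 on the G-MDSC arrays, none of which detected it, and 4.54 at the lowest, 5.95 at the median and 6.37 at the highest on the NN arrays. Every tumor array lay far above every spleen and marrow array, and NN 1 to 5 detected the keratin at a low level while NN 6 and 7 did not. Krt8 was 46.3-fold higher in TAN than in NN (log2 5.53, SE 0.30, limma adjusted p = 6.38e-12) and 28.7-fold higher in SM16 than in NN (log2 4.84, SE 0.25, adjusted p = 2.13e-12). With NN 1 to 5 alone, which share the background level of the tumor arrays, the changes were 5.19 and 4.50. With no background correction they were 4.05 and 3.39, and both calls held under each alternative run.

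Krt18, the filament partner of keratin 8, measured 8.78, 8.15, 9.21, 8.51 and 9.24 in SM16 and 10.18, 9.81 and 8.78 in TAN. It was detected on no G-MDSC array (5.32, 4.45, 4.51 and 4.51) and no NN array (4.53 at the lowest, 5.08 at the median, 5.43 at the highest). A probe detected on no array of a group has only a bound there, so its fold is written as at least the ratio to the lowest signal that counted as detected. Krt18 was thus at least 17.7-fold higher in TAN than in NN (log2 4.57, SE 0.30, adjusted p = 1.12e-10) and at least 10.1-fold higher in SM16 than in NN (log2 3.76, SE 0.26, adjusted p = 1.11e-10). With no background correction the log2 changes were 2.80 and 2.10.

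Msln followed the same pattern. Its levels were 9.01, 7.64, 8.41, 8.28 and 8.53 in SM16 and 9.61, 9.0 and 7.43 in TAN, where TAN 4 was the lowest of all 8 tumor arrays. In G-MDSC it stood at 4.57, 4.48, 4.59 and 4.74 and in NN at 4.40 at the lowest, 4.46 at the median and 4.48 at the highest, with no detection in either group. No tumor array overlapped these. Msln was at least 9.42-fold higher in TAN than in NN (log2 4.24, SE 0.32, adjusted p = 8.21e-10) and at least 7.62-fold higher in SM16 than in NN (log2 3.93, SE 0.27, adjusted p = 1.36e-10). With no background correction these were 2.35 and 2.08 on the log2 scale.

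Krt19 was much dimmer. SM16 arrays read 6.63, 6.11, 6.63, 6.28 and 6.28, all detected, whereas the TAN arrays read 5.34, 4.80 and 6.77, of which TAN 4 alone was detected. Neither G-MDSC (4.37, 4.47, 4.34 and 4.31) nor NN (4.28 at the lowest, 4.41 at the median, 4.57 at the highest) detected it. Krt19 was at least 1.92-fold higher in SM16 than in NN (log2 1.98, SE 0.22, adjusted p = 1.69e-07). TAN minus NN was called as well (log2 1.23, SE 0.26, adjusted p = 0.000364), but no fold is given because TAN 1 and 2 did not detect the probe. With TAN 4 as the only TAN array, where the other groups supply the spread of a lone array, the change was 2.36, and without TAN 4 it was 0.67.

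**Figure D1:**
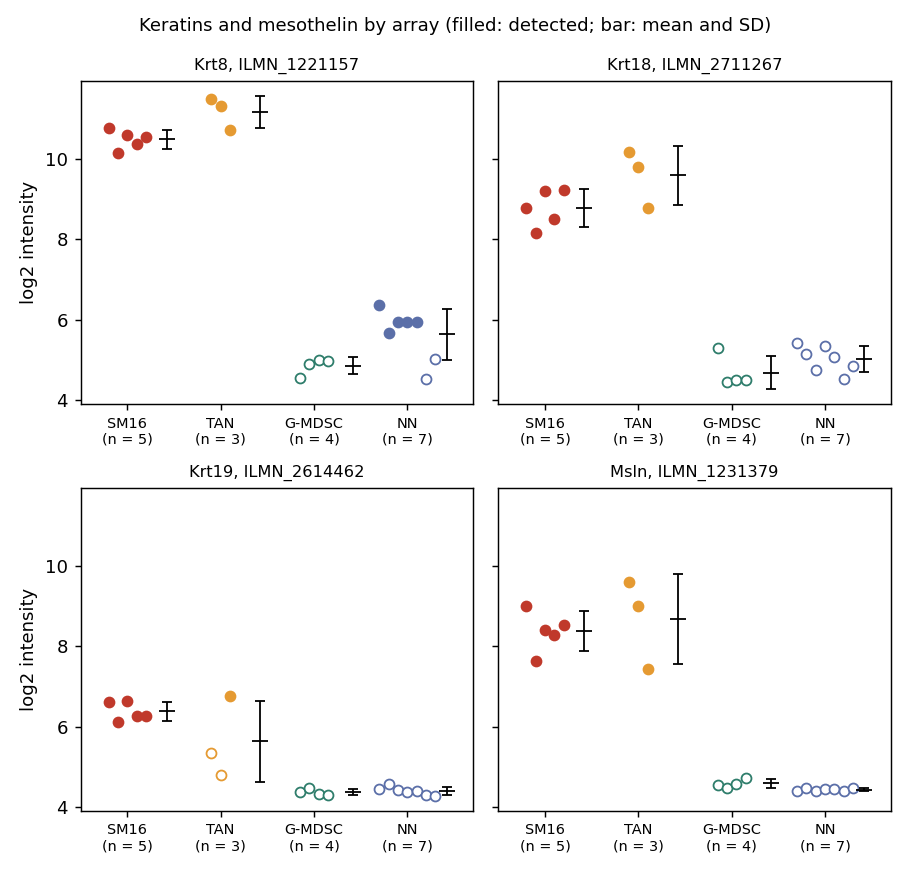
Log2 intensity of Krt8, Krt18, Krt19 and Msln on each array (filled circles detected, open circles not; bars give the group mean and SD) for SM16, TAN, G-MDSC and NN. Krt8, Krt18 and Msln are detected on all 8 tumor arrays and lie above every G-MDSC and NN array, and Krt19 is detected on all 5 SM16 arrays but on TAN 4 alone in its group.

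The matrix genes split. Both collagens were higher in the tumor groups than in NN, decorin was higher in SM16 by both of its probes and in TAN by 1 of them, and Sparc was lower in TAN than in NN. Dcn and Sparc were themselves measurable in bone marrow, which the keratins other than Krt8, mesothelin and the collagens were not.

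Dcn was read by 2 probes. The brighter one, ILMN_2747959, gave 9.13, 8.80, 9.28, 9.33 and 7.88 in SM16 and 8.18, 8.38 and 7.55 in TAN. It gave 4.82, 4.48, 4.63 and 4.74 in G-MDSC, not detected, and 5.85 at the lowest, 6.78 at the median and 7.08 at the highest in NN, detected on all 7 arrays. The order was SM16, TAN, NN and G-MDSC, and of the neighbours in it SM16 and TAN alone overlapped. By this probe Dcn was 4.59-fold higher in SM16 than in NN (log2 2.20, SE 0.26, adjusted p = 2.94e-07) and 2.55-fold higher in TAN than in NN (log2 1.35, SE 0.30, adjusted p = 0.000606). With TAN 4 as the only TAN array TAN minus NN was 0.86 with an adjusted p of 0.128.

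The dimmer Dcn probe, ILMN_2596346, was detected on all SM16 arrays (6.44, 6.70, 6.01, 6.74 and 5.45) and on no other array of the series. Its TAN values were 4.50, 4.45 and 5.00, and its NN values ran between 4.50 and 5.47 with a median of 4.92. Dcn by this probe was at least 1.77-fold higher in SM16 than in NN (log2 1.37, SE 0.21, adjusted p = 8.54e-06), with SM16 5 below the highest NN array, and TAN minus NN did not pass (log2 -0.25, adjusted p = 0.378). The probes correlated at r = 0.758 over the 19 arrays.

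Col1a1 measured 7.70, 6.38, 7.90, 8.13 and 5.75 in SM16 and 6.38, 6.05 and 7.13 in TAN, detected on every one of these. In G-MDSC it read 4.73, 4.59, 4.92 and 4.82 and in NN between 4.80 and 5.38 with a median of 4.98, with no detection. SM16 5 was the dimmest tumor array for Col1a1, and still above all 11 marrow and spleen arrays. Col1a1 was at least 3.31-fold higher in SM16 than in NN (log2 2.14, SE 0.32, adjusted p = 8.46e-06) and at least 2.11-fold higher in TAN than in NN (log2 1.49, SE 0.38, adjusted p = 0.00189). Without background correction the log2 changes were 1.0 and 0.59.

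Col3a1 probe ILMN_1258629 was close to the detection limit in tumors: 5.76, 5.72, 5.84, 6.32 and 5.01 in SM16, detected on 4 of 5 arrays, and 6.21, 6.62 and 4.97 in TAN, detected on 2 of 3. It was detected on no G-MDSC array (4.47, 4.56, 4.47 and 4.53) and no NN array (4.44 to 4.81, median 4.63). SM16 5 and TAN 4 were the arrays without detection. Col3a1 was higher in TAN than in NN (log2 1.32, SE 0.27, adjusted p = 0.000237) and in SM16 than in NN (log2 1.11, SE 0.23, adjusted p = 0.000247). No fold is given for either, because TAN 4 and SM16 5 did not detect the probe. With TAN 4 as the only TAN array the TAN minus NN change was 0.35 with an adjusted p of 0.358. The other Col3a1 probe, ILMN_2683958, was detected on none of the 19 arrays, read between 4.38 and 5.00 and was not tested.

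Sparc went against the rest. Probe ILMN_3136561 gave 9.21, 8.36, 8.74, 9.64 and 9.02 in SM16, but 4.44, 4.65 and 7.22 in TAN, where TAN 4 alone was detected. It gave 4.97, 4.57, 4.68 and 4.35 in G-MDSC, not detected, and 6.80 at the lowest, 7.85 at the median and 8.59 at the highest in NN, detected on all 7. TAN 1 and 2 thus lay at the level of spleen, and TAN 4 within the range of marrow. Sparc by this probe was lower in TAN than in NN (log2 -2.39, SE 0.49, adjusted p = 0.000244), with no fold given because TAN 1 and 2 did not detect it. It was 2.25-fold higher in SM16 than in NN (log2 1.17, SE 0.41, adjusted p = 0.0182). Neither call held in every setting: with TAN 4 as the only TAN array TAN minus NN was -0.61 (adjusted p = 0.378), with NN 1 to 5 alone SM16 minus NN was 1.0 (adjusted p = 0.0962), and without SM16 4 it was 1.01 (adjusted p = 0.0567).

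The second Sparc probe, ILMN_3059326, correlated with the first at r = 0.890. It measured 7.70, 7.09, 5.32, 7.63 and 7.86 in SM16 and 5.14, 5.17 and 5.68 in TAN, with SM16 3, TAN 1 and TAN 2 not detected. In NN it ran between 5.62 and 7.50 with a median of 7.0, and it was detected on all 7 arrays. By this probe Sparc was lower in TAN than in NN (log2 -1.33, SE 0.46, adjusted p = 0.0168), again with no fold given. The call was lost without TAN 1 (adjusted p = 0.0624), without TAN 2 (adjusted p = 0.0594) and under median scaling (adjusted p = 0.0766). SM16 minus NN did not pass (log2 0.46, adjusted p = 0.320), though it did without SM16 3 (log2 0.91, adjusted p = 0.0183).

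**Figure D2:**
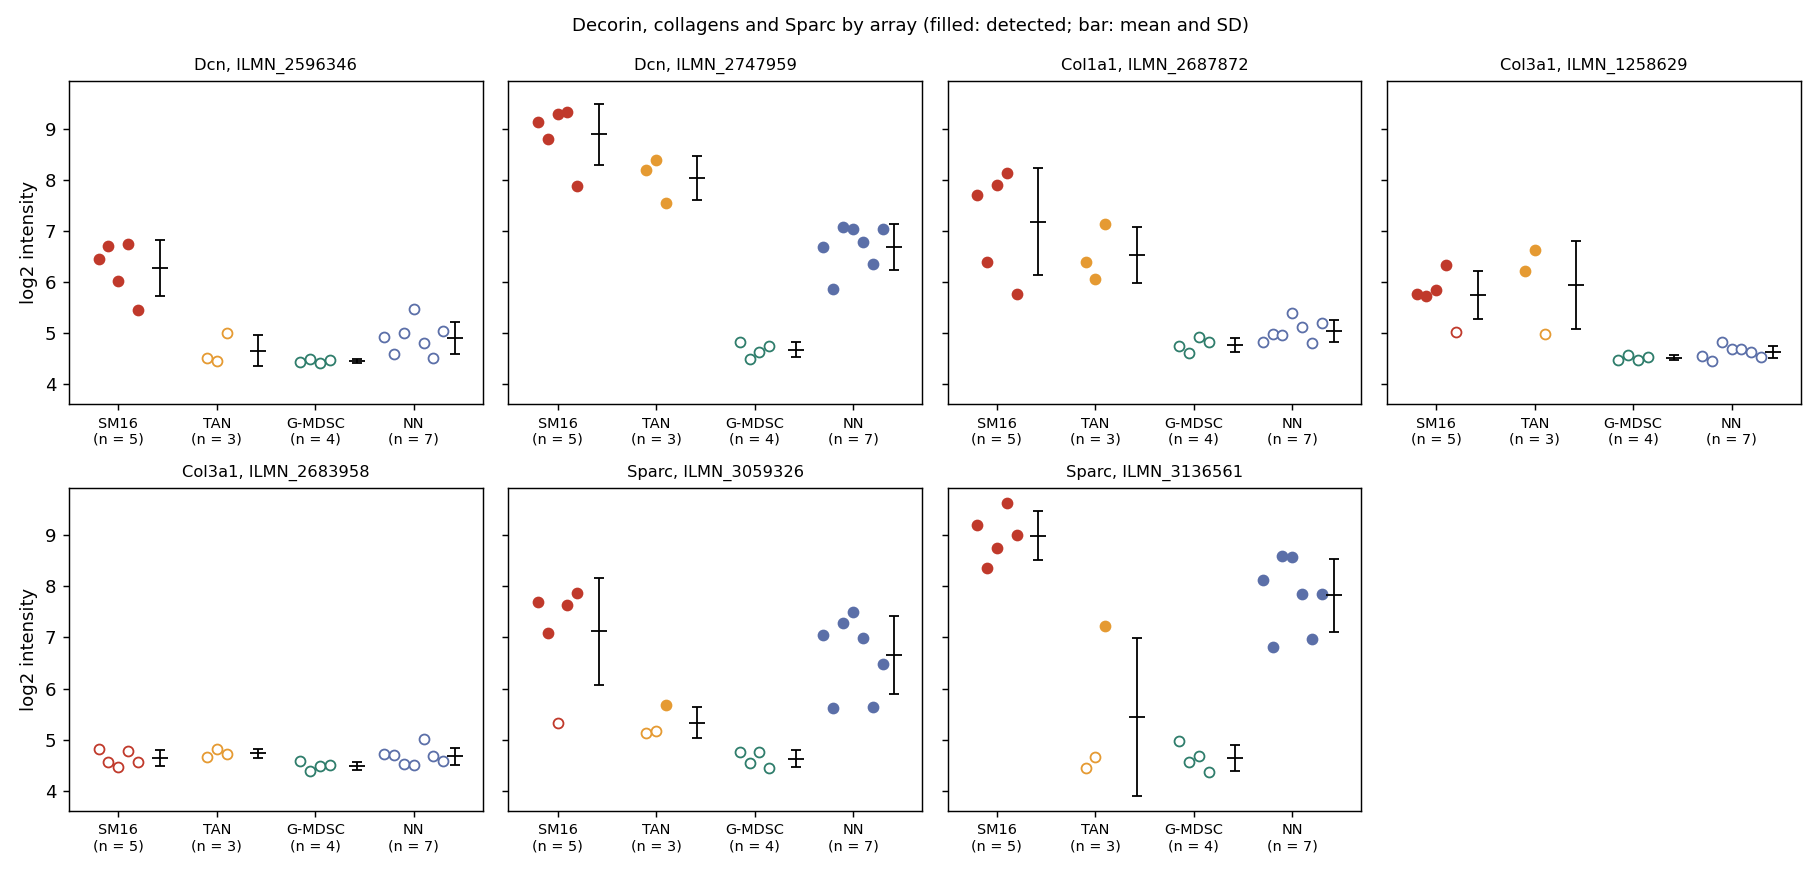
Log2 intensity of the Dcn, Col1a1, Col3a1 and Sparc probes on each array (filled circles detected, open circles not; bars give the group mean and SD) for SM16, TAN, G-MDSC and NN. Dcn ILMN_2747959 and both Sparc probes are detected on all 7 NN arrays and on no G-MDSC array, and Sparc ILMN_3136561 is at 8.36 or above in SM16 but at 4.44, 4.65 and 7.22 in TAN.

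The comparison of SM16 with TAN asks what differed between tumor neutrophils after TGF-beta receptor inhibition and tumor neutrophils without it. Collagen genes and Sparc are known targets that TGF-beta raises in fibroblasts. Of the 10 probes, 5 were higher and 1 lower in SM16, while 20.1% of all tested probes were higher and 25.3% lower. The median log2 change of the 10 was 0.70, where that of all probes was -0.13. The 5 probes that were higher read 3 genes, Dcn, Sparc and Krt19, and the lower one read Krt18. As Dcn ILMN_2596346 passed the filter only through SM16, nothing is read from this count and median against all probes.

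Sparc had the largest difference of the 10 in this comparison. By ILMN_3136561 it was higher in SM16 than in TAN (log2 3.56, SE 0.51, adjusted p = 7.16e-05), with no overlap between the groups. By ILMN_3059326 it was higher as well (log2 1.79, SE 0.49, adjusted p = 0.00692), where SM16 3 lay within the TAN range. No fold is given for either, because TAN 1 and 2 did not detect these probes. Against TAN 4 alone the 2 probes gave 1.78 (adjusted p = 0.0869) and 1.44 (adjusted p = 0.346). Dcn was at least 1.33-fold higher in SM16 than in TAN by ILMN_2596346 (log2 1.62, SE 0.26, adjusted p = 0.000179), again without overlap. Against TAN 4 alone this Dcn probe gave 1.27. It passed the filter only through SM16, the group where it is high, so its call is given as a description. Its brighter probe, ILMN_2747959, was 1.80-fold higher (log2 0.85, SE 0.32, adjusted p = 0.0367), a call lost in 6 of the 8 refits that left out 1 TAN or SM16 array, with adjusted p between 0.0518 and 0.133 there.

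The epithelial genes did not move together between SM16 and TAN. Krt18 was 1.76-fold lower in SM16 (log2 -0.81, SE 0.32, adjusted p = 0.0444), with overlapping arrays, and the call was lost without TAN 1 (adjusted p = 0.284), without TAN 2 (0.166), and without any one of SM16 1, 2 or 4 (0.0662, 0.109 and 0.0843). Krt8 showed -0.69 (SE 0.32, adjusted p = 0.0826) and did not pass, but passed without TAN 4 (log2 -0.91, adjusted p = 0.0273), without background correction (-0.66, adjusted p = 0.00618) and among the 13 arrays of the higher background level (-0.69, adjusted p = 0.0179). Krt19 was higher in SM16 (log2 0.75, SE 0.28, adjusted p = 0.0344), with no fold given because TAN 1 and 2 did not detect it. It stood at -0.38 against TAN 4 alone, and the call was lost without TAN 1, TAN 2, SM16 1 or SM16 3 (adjusted p 0.0620 to 0.358).

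Msln (log2 -0.31, SE 0.34, adjusted p = 0.484), Col1a1 (0.65, SE 0.40, adjusted p = 0.193) and Col3a1 (-0.20, SE 0.28, adjusted p = 0.587) did not pass in SM16 minus TAN. Each of the 3 depended on single arrays. Without TAN 4 the fit called Msln lower in SM16 (log2 -0.93, adjusted p = 0.00349) and Col3a1 lower (-0.68, adjusted p = 0.0175), and without SM16 5 it called Col1a1 higher (1.01, adjusted p = 0.0206). With TAN 4 as the only TAN array Sparc ILMN_3136561 (1.78) and Dcn ILMN_2596346 (1.27) kept their direction, while Msln changed sign to 0.94. With 1 array in an arm and its spread taken from the other groups, a missing call in that fit does not show that a difference is absent.

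**Figure D3:**
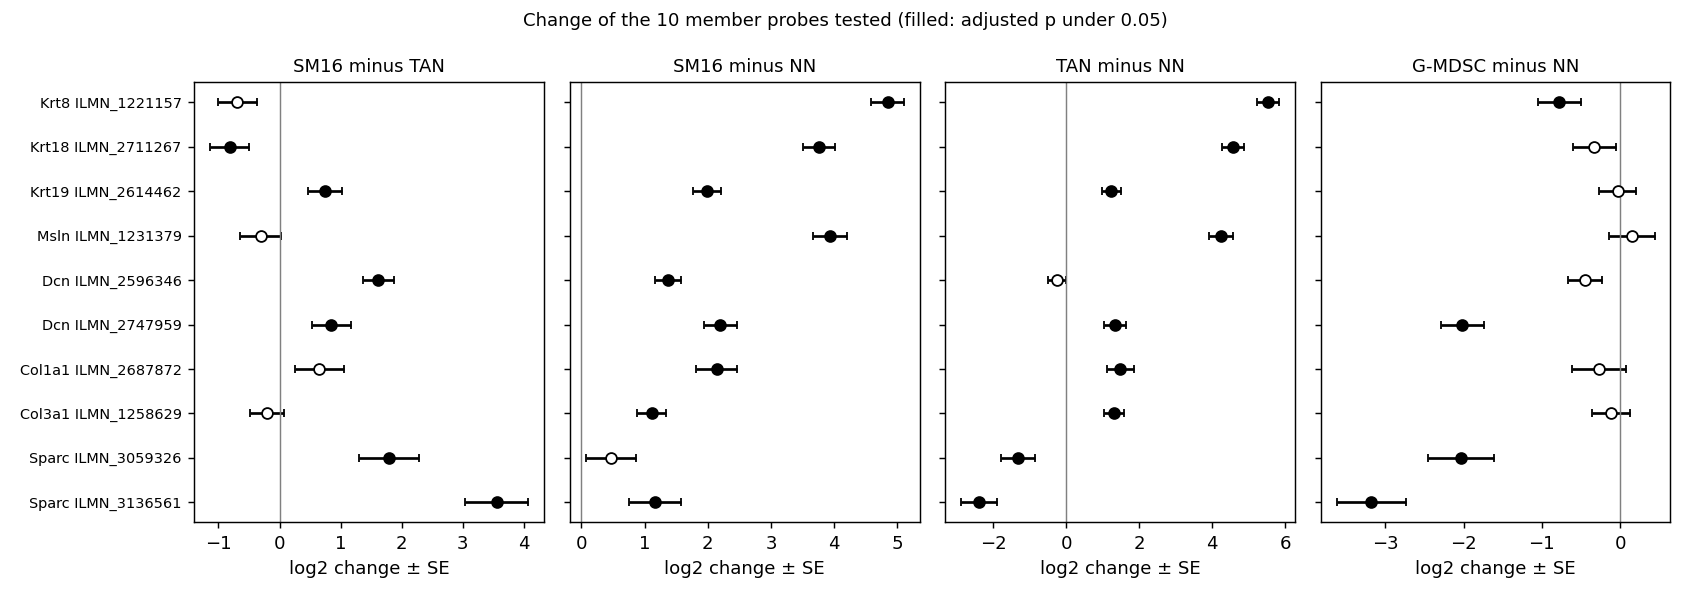
Log2 change with its standard error for the 10 tested probes in SM16 minus TAN, SM16 minus NN, TAN minus NN and G-MDSC minus NN (filled circles have a limma adjusted p under 0.05; each panel has its own horizontal scale). Krt8, Krt18 and Msln lie between 3.76 and 5.53 against NN in both tumor groups, and Sparc is at 3.56 and 1.79 in SM16 minus TAN but at -2.39 and -1.33 in TAN minus NN.

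Spleen neutrophils of tumor-bearing mice carried none of these genes at a detectable level: no G-MDSC array detected any of the 11 probes. Compared with NN, 4 of the 10 tested probes were lower and none higher in G-MDSC, while 21.7% of all probes were lower and 21.8% higher. All 10 passed the filter only through other groups, so these counts were partly fixed beforehand and are given as a description. Krt18, Krt19, Msln, Col1a1, Col3a1 and Dcn ILMN_2596346 were detected on no NN array either. Dcn ILMN_2747959 was at least 2.43-fold lower (log2 -2.02, SE 0.27, adjusted p = 5.12e-06), and Sparc was at least 5.35-fold lower by ILMN_3136561 (log2 -3.18, SE 0.44, adjusted p = 6.50e-06) and at least 2.38-fold lower by ILMN_3059326 (log2 -2.03, SE 0.42, adjusted p = 0.000576), and no array overlapped in any of these. Against NN 6 and 7, the NN arrays with the background level of G-MDSC, these were -2.02, -2.76 and -1.44, and with the background level as a block the call of ILMN_3059326 was lost (adjusted p = 0.0661). Krt8 was lower as well (log2 -0.77, SE 0.27, adjusted p = 0.0270), but against NN 6 and 7 alone the difference was 0.082 (adjusted p = 0.794).

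Set against G-MDSC, 7 of the 10 probes were higher in TAN and all 10 in SM16, with none lower, while 32.9% of all probes were higher and 30.1% lower in TAN, and 28.8% higher and 31.2% lower in SM16. Since no G-MDSC array detected any of them, each probe passed the filter only through other groups, so the direction of these counts was fixed by the filter and they are given as a description. Krt8 was at least 54.6-fold higher in TAN than in G-MDSC (log2 6.31, adjusted p = 2.17e-11) and at least 33.8-fold higher in SM16 (log2 5.62). Dcn ILMN_2747959 was at least 6.19-fold higher in TAN (log2 3.37, adjusted p = 1.31e-07) and at least 11.2-fold higher in SM16 (log2 4.22). Sparc ILMN_3136561 was at least 12.1-fold higher in SM16 than in G-MDSC (log2 4.35) and did not pass in TAN minus G-MDSC (log2 0.79, adjusted p = 0.204). The tumor arrays and the G-MDSC arrays differ in background level throughout, so group and level can be separated only through NN: with the level as a block Krt8 was 5.11 in TAN minus G-MDSC and 4.42 in SM16 minus G-MDSC.

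Across the 19 arrays Krt8, Krt18 and Msln kept close company, with Pearson r of 0.984 for Krt8 and Krt18, 0.980 for Krt18 and Msln and 0.970 for Krt8 and Msln. Sparc stood apart from them, at 0.286 with Krt8, 0.206 with Krt18 and 0.174 with Msln, and 0.643 with Dcn. These values describe 19 arrays in 4 groups that share normalization, and the differences between groups enter them. Among all other named probes, the profiles most like Krt8 were those of Tpi1 (r = 0.988), a glycolytic enzyme, P2rx7 (0.987), an ATP-gated channel, and Prl (0.986), the hormone prolactin. Krt18 had Ift43 (0.989), Rabgef1 (0.989) and Prl (0.988) nearest to it, and Msln had Atg9b (0.993), Gsta1 (0.991) and Prl (0.991). Nearest to Krt19 were Pcolce (0.980), a procollagen processing factor, and the prolactin family genes Prl2c4 (0.976) and Prl2c3 (0.974).

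For the matrix genes the nearest profiles were of other kinds. Dcn lay closest to Hexa (r = 0.954), Nrp1 (0.948) and Lyve1 (0.948), the last a hyaluronan receptor of lymphatic endothelium and some macrophages. Col1a1 lay closest to Rragd (0.940), the gelatinase gene Mmp2 (0.936) and Vgf (0.931), and Col3a1 to the matricellular gene Thbs2 (0.962), the cytokine gene Tslp (0.952) and Aebp1 (0.947). Sparc lay closest to Septin8 (0.958) and to Egfl7 (0.951) and Plvap (0.948), both genes of endothelial cells.

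Further genes of the same cell types were read from lists, with 1 probe per gene (the brightest). Of 19 simple epithelial genes 9 were tested: 2 were higher and 1 lower in TAN than in NN, 4 higher and 2 lower in SM16 than in NN, and 3 higher and 2 lower in SM16 than in TAN. Their median log2 change was 0.17, 0.32 and -0.27 in the same 3 comparisons, where the median of all probes was 0.05, -0.04 and -0.13. Over all probes 34.9%, 29.9% and 20.1% were higher and 33.1%, 32.5% and 25.3% lower in these 3. Of the 9 genes, 4 were detected on no NN array and 4 on no TAN array. Such genes passed the filter only through other groups, so these counts were partly fixed beforehand. Cdh1, the adhesion protein E-cadherin, averaged 6.08 ± 0.58 in SM16, 8.57 ± 0.68 in TAN and 4.82 ± 0.16 in NN (SD), at least 8.72-fold higher in TAN than in NN (log2 3.75, adjusted p = 9.47e-10) and 5.63-fold lower in SM16 than in TAN (log2 -2.49, adjusted p = 1.61e-05). Esrp1, an epithelial splicing factor, and the tight junction gene Cldn4 were not detected in TAN or NN. SM16 exceeded TAN by at least 2.47-fold for Cldn4 (adjusted p = 0.00154). For Esrp1, detected on 4 of 5 SM16 arrays, the log2 change was 2.29 (adjusted p = 0.00106). The SDs over the SM16 arrays were 1.36 for Esrp1 and 1.37 for Cldn4.

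Of 13 mesothelial genes 8 had an annotated probe and 3 passed the filter, and none of the 3 followed Msln through all groups. Igfbp6, an IGF binding protein, was higher in both tumor groups than in NN, as Msln was. It averaged 10.53 ± 0.72 in SM16, 10.60 ± 0.87 in TAN and 5.5 ± 0.15 in NN (SD). In G-MDSC it was 45.1-fold higher than in NN (adjusted p = 1.07e-11), and its spleen arrays overlapped the tumor arrays, unlike those of Msln. Igfbp5 was at least 13.5-fold lower in TAN than in NN (log2 -4.50, adjusted p = 2.15e-09) and 16.7-fold lower in SM16 than in NN (log2 -4.06, adjusted p = 5.72e-10). Pkhd1l1 was lower in TAN than in NN as well (log2 -1.0, adjusted p = 6.91e-05). None of the 3 was called in SM16 minus TAN.

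The fibroblast matrix list, 13 tested of 26, had 6 genes higher and 3 lower in TAN than in NN and the same counts in SM16 against NN, with medians of -0.04 and 0.27. Over all probes 34.9% were higher and 33.1% lower in TAN minus NN, and 29.9% and 32.5% in SM16 minus NN. Of the 13 genes, 3 were detected on no NN array, Mmp2 among them, so these counts were partly fixed by the filter. Mmp2, a type IV collagenase, was at least 3.98-fold higher in TAN (log2 2.44, adjusted p = 8.50e-07) and at least 4.47-fold higher in SM16 (log2 2.61, adjusted p = 2.84e-08). Fbln2, a basement membrane protein, was higher by log2 2.41 and 2.81 in the same order, and 1 of 7 NN arrays detected it. Fap, fibroblast activation protein, was 2.19-fold lower in SM16 than in TAN (log2 -1.13, adjusted p = 0.00365). Timp3, a metalloproteinase inhibitor, was at least 7.81-fold lower in TAN than in NN (log2 -3.98, adjusted p = 8.12e-11). Col5a1, a chain of type V collagen, was 5.98-fold lower in SM16 than in NN (log2 -2.58, adjusted p = 1.66e-07). In SM16 minus TAN 1 gene of the list was higher and 2 lower, with a median of 0.17.

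Of 17 genes for collagen assembly 10 were tested, and 8 were higher and none lower in TAN than in NN and in SM16 than in NN, with medians of 1.5 and 1.68. Over all probes 34.9% were higher in TAN minus NN and 29.9% in SM16 minus NN. P4ha2 and Pcolce were detected on no NN array and so passed the filter only through other groups. P4hb, the protein disulfide isomerase that is also a subunit of prolyl 4-hydroxylase, was 8.61-fold higher in TAN (log2 3.11, adjusted p = 1.34e-11) and 11.4-fold higher in SM16 (log2 3.51, adjusted p = 1.05e-13) than in NN. Its catalytic partner P4ha1 was higher in TAN than in NN (log2 3.66), where 2 of 7 NN arrays detected it. It was 2.44-fold lower in SM16 than in TAN (log2 -1.29, adjusted p = 0.00267). P4hb acts in the secretory pathway of many cell types. All 3 tested PDGF ligands, Pdgfa, Pdgfb and Pdgfc, were higher in both tumor groups than in NN, by 4.46-fold, 3.29-fold and 3.25-fold in TAN and by 2.89-fold, 1.91-fold and 6.57-fold in SM16.

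Of 12 mural cell genes 4 were tested, of which 3 were lower and none higher in SM16 than in TAN and in SM16 than in NN, and 1 was higher and 2 lower in TAN than in NN. Over all probes 25.3%, 32.5% and 33.1% were lower in the same order. Kcnj8, among those called lower in SM16 than in TAN (log2 -0.81, adjusted p = 0.00692), was detected on no array of either group. Acta2, smooth muscle actin, averaged 11.42 ± 0.38 in SM16, 13.14 ± 0.21 in TAN and 13.61 ± 0.10 in NN (SD), 3.30-fold lower in SM16 than in TAN (log2 -1.72, adjusted p = 4.46e-06) and 4.57-fold lower in SM16 than in NN (log2 -2.19, adjusted p = 9.99e-11). TAN minus NN for Acta2 was -0.47 (adjusted p = 0.0231), and 0.24 under median scaling.

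Markers of still other cells differed between the groups as well, and not all in the way of Krt8, Krt18 and Msln. Of 9 endothelial genes tested, 6 were higher and none lower in SM16 than in TAN (20.1% of all probes were higher). In TAN minus NN 8 of the 9 were lower and none higher (33.1% of all probes were lower). In SM16 minus NN 2 were higher and 4 lower, among them Eng 6.16-fold higher (adjusted p = 2.65e-06) and Vwf, von Willebrand factor, 6.01-fold lower (adjusted p = 1.03e-07), while Sparc ILMN_3136561 was called higher there. Their summed intensity was 1844 to 3197 in SM16, 625 to 996 in TAN, 534 to 718 in G-MDSC and 1817 to 4355 in NN. Plvap, which forms the diaphragms of endothelial fenestrae, exceeded its TAN level in SM16 by at least 4.85-fold (log2 2.86, adjusted p = 4.54e-05) and at least 2.66-fold lower in TAN than in NN (log2 -2.0, adjusted p = 8.74e-05). Of the 9 genes, 2 were detected on all TAN arrays and 4 on none. The part of endothelial RNA in the Sparc values was not tested.

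Hair follicle genes were called against NN in SM16 and in neither of the other groups: 7 of 9 tested were higher in SM16 than in TAN and in SM16 than in NN, and none was called in TAN minus NN or G-MDSC minus NN. Over all probes 20.1%, 29.9%, 34.9% and 21.8% were higher in these 4 comparisons. Of the 9 genes, 4 were detected on no TAN array, 6 on no G-MDSC array and 5 on no NN array. Genes detected in SM16 alone passed the filter only through it, so these counts were partly fixed beforehand. Krt31, a hair keratin, measured 9.99 ± 1.41 in SM16 with a range of 7.86 to 11.27, and was detected on no array of TAN (4.97), G-MDSC (4.81) or NN (5.01). The summed intensity of the 9 genes was 22078, 12842, 30696, 2050 and 6219 on SM16 1 to 5, against 872 to 1037 over TAN and 752 to 1380 over NN. On SM16 1 to 5, in the same order, Dcn ILMN_2747959 read 9.13, 8.80, 9.28, 9.33 and 7.88, and Col1a1 read 7.70, 6.38, 7.90, 8.13 and 5.75. Of 5 epidermal genes tested all were higher in SM16 than in NN and 2 in TAN than in NN, Krt14 among them at least 4.56-fold higher in SM16 (log2 3.01, adjusted p = 1.84e-05). As 4 of the 5 were detected on no NN array, their counts were partly fixed by the filter as well. The part of skin RNA in the keratin values was not tested.

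Macrophage genes were higher in both tumor groups than in NN, 5 of 7 in TAN and all 7 in SM16 (34.9% and 29.9% over all probes). Against TAN, 6 of the 7 macrophage genes were higher in SM16 (20.1% over all probes). Their summed intensity was 106846 to 180458 in SM16, 21777, 29119 and 88585 on TAN 1, 2 and 4, 7240 to 9593 in G-MDSC and 6283 to 13591 in NN, and all 7 were detected on every array. TAN 4, the TAN array with the most macrophage signal, was also the one with the least Krt8, Krt18 and Msln and the most Krt19 and Sparc. C1qc averaged 15.33 ± 0.34 in SM16 and 11.13 ± 2.94 in TAN (SD). Of 10 neutrophil genes tested, 8 were lower in TAN than in NN and 7 in SM16 than in NN, where 33.1% and 32.5% of all probes were lower. The summed intensity of the 10 was 175413 to 222990 in SM16, 178307 to 192247 in TAN, 318433 to 348507 in G-MDSC and 400396 to 430002 in NN. Among called genes without overlap the largest drops were those of Ngp, Camp, Mmp8 and Ltf. In TAN minus NN these were -8.62, -5.89, -4.90 and -3.95 on the log2 scale, and 1 of 3 TAN arrays detected Ngp. The counts do not show how many neutrophils a sample held. The part that cell composition plays in the values of Krt8, Msln, Dcn and the collagens was not tested.

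**Figure D4:**
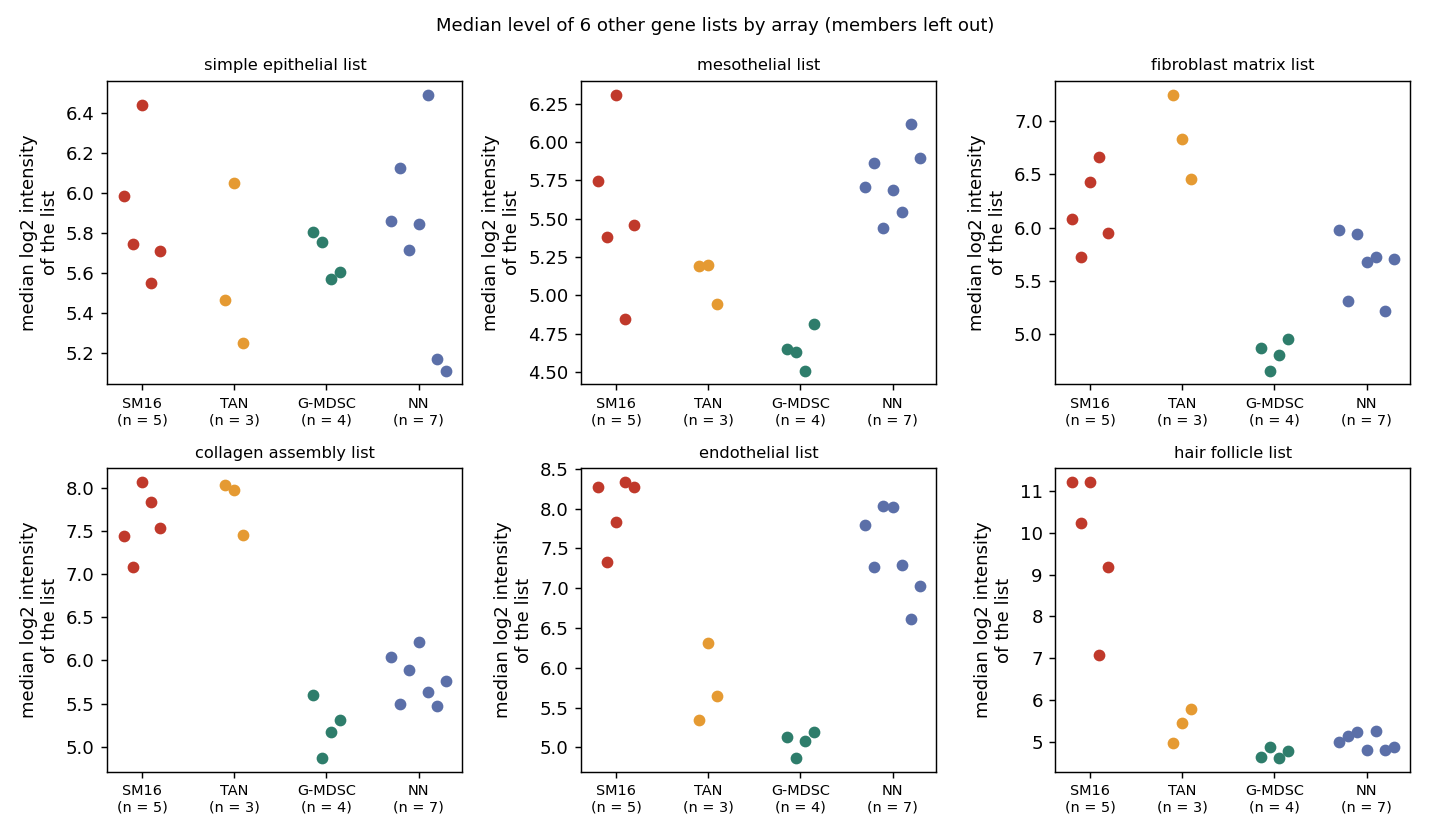
Median log2 intensity of the tested genes of 6 lists on each array of SM16, TAN, G-MDSC and NN, with the 10 genes themselves left out; each panel has its own vertical scale. The collagen assembly medians are above 7 on every tumor array, the endothelial medians are higher in SM16 and NN than in TAN and G-MDSC, the hair follicle medians are high in SM16 alone, and the simple epithelial medians of the 4 groups overlap.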

How the data were processed

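RNA from 19 samples was labelled with biotin by the Ambion Illumina TotalPrep amplification kit, per the labels' protocols, and hybridised to Illumina BeadChips. The labels' treatment and extraction protocols speak of fixed cervical biopsies and not of neutrophils, so nothing was taken from them. The authors deposited a non-normalized table of probe intensity values with a detection p-value for each probe and array, per the file headers, and a normalized table of intensity values. GenomeStudio is named in the submitters' processing notes, and its version is not given in the sources used here. Samples were grouped by their titles.

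Starting from the non-normalized intensity, neqc of limma 3.58.1 (R 4.3.3) subtracted background estimated from the detection p-values, added an offset of 16, quantile normalized and took log2. Of 25697 probes, 13945 passed the detection filter (p-value under 0.01, 3 arrays or more), 857 of them unnamed. All were fitted together with 1 limma model of the 4 groups (15 residual degrees of freedom, variance trend), with two-sided moderated tests of 6 differences and Benjamini-Hochberg adjustment over all 13945 probes. A call is an adjusted p under 0.05. The fit is per probe because probes of 1 gene can disagree. The script was tested on simulated data.

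The members and lists were chosen with earlier results of these data known. Open to naming were all member probes, up to 4 called, non-overlapping genes with the largest change per list and comparison, the 3 profiles most like each member's brightest probe, and S100a8, S100a9, Csf3r and Krt31. Not every list gene that met this rule is named. Genes of probes come from the platform's annotation, promoters from RefSeq (GRCm38.p6). The alternatives were no background correction, median scaling, no detection filter, the authors' normalized table, 1 probe per gene, fits of 2 groups, a replicate block, the background level as a block or held fixed, TAN 4 as the only TAN array, and leaving out arrays. The number of arrays limits precision, and background-corrected folds of dim probes depend on the correction.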

Additional observations from a re-analysis of the deposited data

Results flagged for a closer look

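Of 33 checks of a member probe within a group of 4 to 10 arrays, 2 found 1 array far from the others, and chance alone gives about 1 in 20 such groups. Krt18 read 5.32 on G-MDSC 1, while the other G-MDSC arrays read 4.45 to 4.51. Col3a1 probe ILMN_2683958 read 5.00 on NN 5, while the other NN arrays read 4.49 to 4.71. Neither value was detected on its array.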

How the results depend on the processing

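Krt8, Krt18 and Msln kept their direction and their call against NN and against G-MDSC, in both tumor groups, under every alternative run. Krt18 and Msln were detected on tumor arrays alone, and Krt8 on no G-MDSC array. Apart from Krt8 against NN, the filter thus fixed these directions beforehand. Over all member probe results, 811 kept direction and side of the threshold, 51 lost the call, 22 gained one and 14 changed sign. Member calls in SM16 minus TAN fell to 0 of 10, against 6, with TAN 4 as the only TAN array, where an arm of 1 array and a spread borrowed from the other groups limit what can be called. They ran between 3 and 8 when 1 TAN or SM16 array was left out. No NN array was left out in any refit. With TAN 4 alone TAN minus NN had 5 member calls, against 9. With the background level as a block G-MDSC minus NN had 2, against 4. Leaving out 1 TAN, SM16 or G-MDSC array gave 8 to 9 member calls in TAN minus NN, 8 to 10 in SM16 minus NN and 3 to 4 in G-MDSC minus NN. Over all probes SM16 minus TAN had 6337 calls, against 3002 in a fit of its 2 groups, 488 with TAN 4 alone and 3315 to 8631 without 1 TAN or SM16 array (3315 without TAN 1, 3456 without TAN 2). TAN minus G-MDSC had 8779, against 5405 with the background block and 5819 with TAN 4 alone, and SM16 minus G-MDSC had 8368, against 4694 with that block. Median scaling moved the share of calls that were higher to 26.8% from 44.2% in SM16 minus TAN, to 62.2% from 51.4% in TAN minus NN and to 65.4% from 52.2% in TAN minus G-MDSC, with the median of all probes at -0.47, 0.37 and 0.39. Signs changed as follows. Median scaling gave 0.29 for Dcn ILMN_2596346 and 0.24 for Acta2 in TAN minus NN and -0.076 for Msln in G-MDSC minus NN. The background block and arrays of 1 level gave 0.082 for Krt8 and 0.076 for Krt19 in G-MDSC minus NN, and the block -0.13 for Sparc ILMN_3059326 in TAN minus G-MDSC. TAN 4 alone gave 0.10 for Dcn ILMN_2596346 in TAN minus NN and, in SM16 minus TAN, -0.38 for Krt19, 0.94 for Msln and 0.76 for Col3a1. Leaving out 1 such array gave -0.93 (without TAN 4) to 0.16 (without TAN 1) for Msln and -0.68 (without TAN 4) to 0.14 (without TAN 2) for Col3a1 in SM16 minus TAN, and -0.10 (without TAN 4) to 1.29 for Sparc ILMN_3136561 in TAN minus G-MDSC. Same-numbered arrays did not deviate together (r of deviations -0.33 to 0.26 over 22 pairs, 6 above 0.1), so the numbers were not taken to pair them. A replicate block made Krt8 a call in SM16 minus TAN (-0.72, adjusted p = 0.0282), ended those of Krt19 (0.75, adjusted p = 0.0762) and Dcn ILMN_2747959 (0.90, adjusted p = 0.0502) and added Dcn ILMN_2596346 in G-MDSC minus NN (-0.62, adjusted p = 0.0225). SM16 and TAN arrays share no background level with G-MDSC, so no within-level value exists there. The cause of these shifts was not tested.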
